A study of Homo sapiens with 4 samples.

Results

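The data described here are the read counts and FPKM values of 1 library of MOLM-13 cells that carried a control short hairpin (shControl), 1 of 4 libraries in the series. MOLM-13 is a human acute myeloid leukaemia line of monocytic type that carries a KMT2A::MLLT3 fusion gene and an internal tandem duplication in FLT3. FPKM, fragments per kilobase of exon scaled to the size of the library, is a level per length, so genes can be set side by side on it. The members are all genes of the deposited table, ranked by FPKM within this library: 24940 genes are listed, and 19450 of them had a count. Every listed gene had a count in at least 1 of the 4 libraries, so shares over listed genes leave out genes without one.

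The series asked what happens in these cells when c-Myc and Bcl-2 are depleted together, and the control library is the parallel arm with a control hairpin. Per the labels, its genotype is negative control. Its treatment is induction with doxycycline for 72 h, which all libraries of the series share, so it was not sampled before induction. Cells were grown in RPMI-1640 with 10% serum, infected with lentivirus and selected with 0.5 µg/ml puromycin or 600 µg/ml G418, and the labels do not say which drug the control cells received. The labels name blood as the tissue, but the sample is a cultured line, and with 1 library nothing here has a replicate check. Every interval below is a 95% interval that covers counting error only, since reads without molecular identifiers are not independent molecules.

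KMT2A fusions recruit elongation factors and the DOT1L histone methyltransferase to genes such as the HOXA cluster and MEIS1, and the HOXA9 and MEIS1 proteins together keep myeloid progenitors dividing. FLT3 is a receptor tyrosine kinase of early blood progenitors, and the tandem duplication makes it signal without its ligand. CD33 is a sialic acid binding surface protein of the myeloid lineage. MYC drives growth and ribosome production, and BCL2 holds back the mitochondrial step of cell death.

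The library held 14825763 counts in listed genes. Of the 24940 genes, 10847 (43.5%) reached 1 FPKM, as did 9582 of 14791 protein-coding genes (64.8%). Counts of members at 1 FPKM below are read against this share, and counts at 10 FPKM against 29.2% of protein-coding genes. The lists and members were chosen with earlier results of these data known, so no count below is a test of a list. At the median gene length of 3036 bases, 1 count was worth 0.0222 FPKM, and 3 counts, the one-sided limit that a count of 0 allows, were worth 0.0667 FPKM. The median level was 3.72 FPKM over protein-coding genes and 0.482 FPKM over all listed genes. The 100 genes with the highest FPKM took 21.1% of all counts (21.09% to 21.14%, exact binomial), and 44 of them encode cytosolic ribosomal proteins and 12 are mitochondrial.

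All 4 genes that mark these cells were detected above 1 FPKM, at very different levels. FLT3 (ENSG00000122025, chr13:28003274-28100592 in GRCh38, minus strand) stood at 97.4 FPKM (94.99 to 99.93, 6008 counts), rank 307 of all listed genes. HOXA9 (ENSG00000078399, chr7:27162435-27175180, minus strand) stood at 15.1 FPKM (14.0 to 16.3, 677 counts), rank 3037. CD33 (ENSG00000105383, chr19:51225064-51243860, plus strand) stood at 7.27 FPKM (6.72 to 7.85, 644 counts), and MEIS1 (ENSG00000143995, chr2:66433452-66573869, plus strand) at 3.32 FPKM (3.04 to 3.61, 538 counts). The levels of these 4 genes did not overlap in counting error, and FLT3 was at the 98.8th percentile of listed genes while MEIS1 was at the 67.6th. The genes that the other hairpins of the series target were also well above 1 FPKM. MYC (chr8:127735434-127741434, plus strand) stood at 137 FPKM (134 to 141, 6111 counts), rank 202, and BCL2 (chr18:63123346-63320128, minus strand) at 9.67 FPKM (9.22 to 10.1, 1687 counts), rank 4542.

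**Figure D1:**
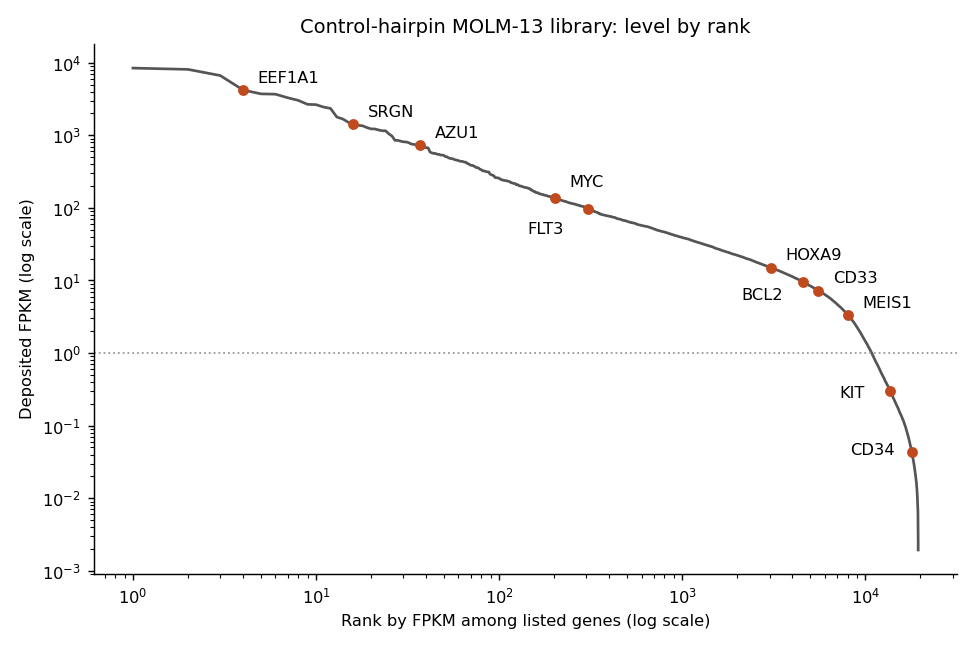
Deposited FPKM of every gene with a count in the control-hairpin library against its rank, both axes logarithmic, with 11 genes marked and a dotted line at 1 FPKM. MYC (137 FPKM) and FLT3 (97.4 FPKM) lie on the upper part of the curve, MEIS1 (3.32 FPKM) close above the line, and KIT (0.303 FPKM) and CD34 (0.0439 FPKM) below it.

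The length behind each FPKM bears on this order. The lengths that the deposited counts and FPKM imply are those of all exons of a gene joined together, and for CD33 this is 5975 bases, while its longest principal transcript has 1444 bases. With principal transcript lengths, an alternative chosen after seeing the data, CD33 stood at 30.1 FPKM, HOXA9 at 22.2 FPKM, BCL2 at 15.3 FPKM and MEIS1 at 8.46 FPKM. FLT3 moved little, to 105 FPKM, and MYC to 302 FPKM. CD33 thus lay above HOXA9 on this scale and below it on the deposited one, so the order of these markers depends on the length used. Of 554 genes of the lists described below with a count and a principal length, 262 were over 1.5 times higher with that length and 59 over 3 times higher. The order of genes within a list is therefore that of the deposited scale, unless said otherwise.

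Promoter sequence was set against level, because most promoters of widely used genes are rich in CG dinucleotides and many promoters of lineage-restricted genes are not. RefSeq promoters of GRCh38.p14, from 250 bases before to 50 bases after a start, matched 11849 of 14791 protein-coding genes (80.1%) by symbol or by an unambiguous synonym on the same chromosome and strand. The median over starts was used for the 3363 genes with several. A promoter is called CG-rich here where the number of CG dinucleotides is at least 0.6 of that given by its C and G content. CG is its own reverse complement, so both strands give the same count. Of all matched promoters 73.9% were CG-rich. The share was 42.6% among genes at 0 FPKM, 57.6% at 0.1 to below 1 FPKM, 81.5% at 1 to below 10 FPKM and 89.6% at 10 to below 100 FPKM. At 100 FPKM or above it was 87.1% of 233 promoters, so it did not go on rising at the top.

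Promoters of the same class, CG-rich or CG-poor, could belong to genes at very different levels, and 2 pairs were chosen to show this. Below are a CG-rich pair, FLT3 and KIT, which encode related receptor kinases, and a CG-poor pair, AZU1, a granule protein, and CD33. Each is written 5′ to 3′ on the gene's strand with CG in capitals. FLT3 (chr13:28100527-28100826, minus strand) holds 34 CG dinucleotides and KIT (chr4:54657707-54658006, plus strand) holds 38. AZU1 (chr19:827587-827886, plus strand) holds 9, and CD33 (chr19:51224830-51225129, plus strand) holds 3.
FLT3: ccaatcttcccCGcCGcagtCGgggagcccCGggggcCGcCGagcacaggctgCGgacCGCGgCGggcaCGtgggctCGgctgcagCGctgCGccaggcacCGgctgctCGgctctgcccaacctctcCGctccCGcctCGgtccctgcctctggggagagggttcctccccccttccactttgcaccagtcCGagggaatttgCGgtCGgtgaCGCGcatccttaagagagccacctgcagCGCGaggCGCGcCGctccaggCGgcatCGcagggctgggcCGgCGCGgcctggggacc
KIT: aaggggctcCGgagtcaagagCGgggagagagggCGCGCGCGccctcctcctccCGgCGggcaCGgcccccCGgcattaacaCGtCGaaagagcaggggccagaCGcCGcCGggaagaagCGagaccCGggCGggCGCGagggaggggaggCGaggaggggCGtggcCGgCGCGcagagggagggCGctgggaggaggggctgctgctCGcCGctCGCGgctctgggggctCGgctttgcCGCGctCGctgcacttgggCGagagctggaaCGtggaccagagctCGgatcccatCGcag
AZU1: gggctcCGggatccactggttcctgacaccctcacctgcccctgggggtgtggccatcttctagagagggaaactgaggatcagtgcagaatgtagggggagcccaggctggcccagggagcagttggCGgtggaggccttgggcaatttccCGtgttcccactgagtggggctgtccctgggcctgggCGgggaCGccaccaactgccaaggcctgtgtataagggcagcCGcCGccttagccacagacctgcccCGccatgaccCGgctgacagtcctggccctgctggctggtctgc
CD33: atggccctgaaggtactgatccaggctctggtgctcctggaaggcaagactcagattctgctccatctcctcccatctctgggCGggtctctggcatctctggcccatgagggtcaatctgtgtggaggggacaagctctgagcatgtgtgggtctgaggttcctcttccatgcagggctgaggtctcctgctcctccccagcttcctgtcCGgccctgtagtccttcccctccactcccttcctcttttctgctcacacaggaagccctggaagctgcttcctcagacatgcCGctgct
With these promoters FLT3 stood at 97.4 FPKM and KIT at 0.303 FPKM, while AZU1 stood at 739 FPKM and CD33 at 7.27 FPKM. In the HOXA cluster 9 of 11 genes were matched and 9 of those 9 promoters were CG-rich, HOXA4 (0.0772 FPKM) as well as HOXA9 (15.1 FPKM). Of the 17 matched monocyte and macrophage genes, 1 had a CG-rich promoter. These are descriptions of sequence beside level, and what sets the level was not tested.

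The HOXA cluster was expressed mainly from its 5′ end. Of its 11 genes, 9 were at or above 1 FPKM and 4 at or above 10 FPKM (protein-coding background 64.8% and 29.2%). The 4 were neighbours: HOXA9 at 15.1 FPKM, HOXA10 at 14.3 FPKM (13.3 to 15.3), HOXA11 at 12.1 FPKM (11.0 to 13.4) and HOXA13 at 13.5 FPKM (12.7 to 14.3). They encode homeodomain factors of the posterior type. HOXA9 over HOXA10 gave a ratio of 1.05 (0.95 to 1.17) and HOXA13 over HOXA11 a ratio of 1.11 (0.99 to 1.25), so neither pair differed beyond counting error. HOXA10 over HOXA11 gave 1.18 (1.05 to 1.33), or 1.71 with principal transcript lengths. HOXA5 followed at 4.70 FPKM (3.90 to 5.63, 119 counts), and HOXA6, HOXA3 and HOXA7 lay between 1.09 and 1.63 FPKM. HOXA2 stood at 0.521 FPKM, and HOXA4 held 2 counts (0.0772 FPKM, 0.00935 to 0.279).

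Several of these genes share exonic bases with a neighbour or with an antisense gene, and reads there may have been left uncounted or counted for either. The shared portion was 62.5% for HOXA7, 47.3% for HOXA4, 40.1% for HOXA6, 31.1% for HOXA11, 27.0% for HOXA9 and 26.3% for HOXA10, but 1.69% for HOXA13 and 0 for HOXA5. The low values of HOXA4, HOXA6 and HOXA7 are therefore uncertain. The antisense genes of the cluster, named after their values were seen, were low: HOXA10-AS stood at 1.22 FPKM (30 counts), HOTTIP, which lies beside HOXA13, at 0.637 FPKM (48 counts), and HOTAIRM1 at 0.451 FPKM (10 counts).

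**Figure D2:**
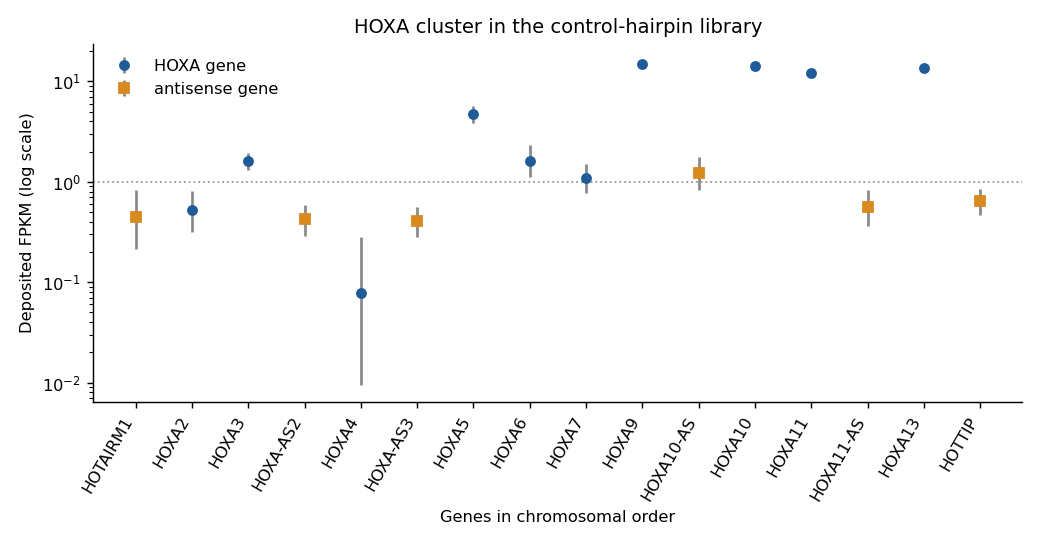
Deposited FPKM (log scale) of 10 HOXA genes and the antisense genes in chromosomal order, with 95% intervals from counting error and a dotted line at 1 FPKM. HOXA9, HOXA10, HOXA11 and HOXA13 lie between 12.1 and 15.1 FPKM, above all other genes drawn, and HOXA4 is lowest at 0.0772 FPKM.

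The other HOX clusters are represented by 9 listed genes, 5 of them at or above 1 FPKM (55.6%, against 64.8% of protein-coding genes). All 5 were from the HOXC cluster. HOXC4 stood at 10.9 FPKM (9.92 to 11.98, 441 counts), HOXC10 at 7.09 FPKM and HOXC6 at 4.69 FPKM, while HOXC8 and HOXC9 lay at 2.29 and 1.57 FPKM. HOXB3, HOXB4 and HOXB9 held between 1 and 7 counts each (0.0633 FPKM or less). HOXC5 was at 0, but 59.9% of its exonic bases are shared with another gene, so its 0 is uncertain. The remaining HOXB, HOXC and HOXD genes were not analysed here.

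Of 14 listed partners of the HOX proteins and known targets of KMT2A fusions, 13 were at or above 1 FPKM (protein-coding background 64.8%). The median of the list was 10.8 FPKM. After FLT3 the highest was MYB, a transcription factor that blood progenitors need, at 81.4 FPKM (79.4 to 83.4). With principal transcript lengths MYB stood at 135 FPKM, above FLT3. CDK6, the cyclin D partner kinase, stood at 27.4 FPKM (26.7 to 28.2). PBX2 and PBX3, which bind DNA together with HOX proteins, stood at 23.4 and 9.80 FPKM, a PBX3 over PBX2 ratio of 0.419 (0.382 to 0.460). JMJD1C stood at 23.0 FPKM, ZEB2 at 14.7 FPKM, MEF2C at 11.8 FPKM and RUNX2 at 7.20 FPKM. MEIS2, the relative of MEIS1, stood at 5.00 FPKM, above MEIS1 on the deposited scale. EYA1, a transcriptional coactivator and a target in some KMT2A leukaemias, held 1 count (0.00716 FPKM).

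Listed genes of the KMT2A complex and of elongation cofactors, KMT2A and MLLT3 among them, were all present. Of these, 22 of 22 were at or above 1 FPKM and 16 at or above 10 FPKM (protein-coding background 64.8% and 29.2%). MLLT1, a reader of acetylated histones in the elongation complex, was highest at 45.6 FPKM, followed by WDR5 of the KMT2 complex at 38.1 FPKM and PAF1 at 34.0 FPKM. AFF1 stood at 28.4 FPKM and DOT1L at 25.2 FPKM. The genes that form the fusion were near the bottom of this list: MLLT3 stood at 2.36 FPKM (2.09 to 2.65, 284 counts) and KMT2A at 1.82 FPKM (1.70 to 1.95, 846 counts). Reads of a fusion mRNA are counted for whichever gene holds the exon they fall in, so these levels cannot be divided between fused and intact genes. KMT2A has a joined exon length of 31305 bases against 13678 in its principal transcript, with which it would stand at 4.17 FPKM.

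Of the listed transcription factors of the myeloid lineage, 18 of 20 were at or above 1 FPKM and 15 at or above 10 FPKM. The protein-coding background was 64.8% and 29.2%, and the median of the list was 18.6 FPKM. IRF8, which directs monocyte and dendritic cell development, was highest at 138 FPKM (135 to 140), rank 200. SPI1 (PU.1), the factor that opens myeloid genes, stood at 79.5 FPKM (76.4 to 82.8), and CEBPA, which drives granulocyte and monocyte progenitors, at 67.2 FPKM (64.7 to 69.9). SPI1 exceeded CEBPA by a ratio of 1.18 (1.12 to 1.25), and 43.4% of the exonic bases of CEBPA are shared with another gene. JUNB stood at 59.0 FPKM, GFI1, a repressor in granulocyte progenitors, at 54.0 FPKM, CBFB at 38.6 FPKM and IKZF1 at 35.9 FPKM. RUNX1, the partner of CBFB, stood at 18.1 FPKM and ETV6 at 14.4 FPKM. The immediate early factor EGR1 stood at 14.2 FPKM, while its relative EGR2 was at 0.384 FPKM (21 counts). Also towards the low end of the list were KLF4 at 3.13 FPKM, IRF5 at 1.71 FPKM, and CEBPE, which is needed for late granulocyte maturation, at 0.694 FPKM (16 counts).

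Factors of stem cells and early progenitors were split. LYL1 stood at 45.8 FPKM, HHEX at 36.1 FPKM, LMO2 at 32.2 FPKM, ID2 at 19.8 FPKM and SOX4 at 18.7 FPKM. ID1 was below 1 FPKM at 0.875, as were GATA2, a stem and mast cell factor, at 0.484 FPKM (32 counts), and HLF, a marker of stem cells, at 0.0511 FPKM (5 counts). Of the 7 listed factors of other blood lineages 0 reached 1 FPKM: PAX5 of B cells was highest at 0.1301 FPKM, and EBF1, KLF1 and GFI1B were at 0.

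Of the lists of lineage genes, that of granule protein genes of myeloid progenitors had the highest median mRNA level, 83.6 FPKM. Of its 14 listed genes 13 were at or above 1 FPKM and 7 at or above 100 FPKM (protein-coding background 64.8% and 1.96%). SRGN, the proteoglycan that packs granules, stood at 1418 FPKM (1401 to 1435, 25647 counts), rank 16 of all genes, among the 0.162% of protein-coding genes at or above 1000 FPKM. AZU1 stood at 739 FPKM (729 to 750), RNASE2 at 396 FPKM (385 to 408), ELANE, the neutrophil elastase gene, at 324 FPKM (315 to 333), and CTSG at 238 FPKM. PRSS57 followed at 191 FPKM. MPO, the myeloperoxidase gene that is widely used to call a leukaemia myeloid, stood at 35.4 FPKM (33.8 to 37.0), so AZU1 exceeded it by a ratio of 20.9 (19.9 to 21.9), or 37.4 with principal transcript lengths. RNASE3 stood at 14.0 FPKM and BPI at 8.14 FPKM. RNASE2 and RNASE3 are close copies of each other, so the division of reads between them is uncertain. IGLL1 was at 0.

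Genes of mature monocytes and macrophages were uneven, with 12 of 21 at or above 1 FPKM (57.1%, against 64.8% of protein-coding genes). AIF1, an actin-binding protein of macrophages, stood at 109 FPKM (104 to 113). The lysosomal genes CTSS and CTSB stood at 45.5 and 33.9 FPKM, CST3 at 39.3 FPKM, the adaptor TYROBP at 29.2 FPKM and LYZ at 19.5 FPKM, with 34.0% of its exonic bases shared. S100A9 and S100A8, named after their values were seen, stood at 12.3 and 4.43 FPKM, and these calprotectin genes are among the most abundant in blood monocytes. CD14, the lipopolysaccharide co-receptor, held 11 counts (0.393 FPKM, 0.196 to 0.704). VCAN, S100A12 and C1QA were at 0. CD68 was also listed at 0, with 85.8% of its exonic bases shared with another gene, so its 0 is uncertain.

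On the cell surface, 16 of 27 listed myeloid antigens were at or above 1 FPKM (59.3%, against 64.8% of protein-coding genes), so the list as a whole was not expressed more often than coding genes. ITGB2, the common chain of leukocyte integrins, was highest at 106 FPKM (104 to 108). Its partner chains ITGAM and ITGAX stood at 13.1 and 3.89 FPKM. CD4, which monocytes carry as well as T cells, stood at 32.0 FPKM (30.6 to 33.3), CD93 at 30.1 FPKM and the Fc receptor gene FCGR1A at 29.3 FPKM. FUT4, whose product makes the CD15 sugar, stood at 24.7 FPKM. IL3RA, the CD123 chain of the interleukin-3 receptor, stood at 22.3 FPKM (20.5 to 24.2), and NCAM1 (CD56), seen on some monocytic leukaemias, at 18.5 FPKM (17.9 to 19.1). LILRB4 stood at 13.9 FPKM, CD244 at 11.0 FPKM, CD33 at 7.27 FPKM, FCGR2A at 6.96 FPKM, CD300A at 3.69 FPKM and CD36 at 2.98 FPKM. CLEC12A, another target of leukaemia antibodies, was close to the threshold at 1.58 FPKM (1.24 to 1.97).

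Below 1 FPKM were CD86 and HAVCR2 (each at 0.550 FPKM), CD14, LILRB2 (0.266 FPKM), CD163 (0.186 FPKM) and CLEC7A (0.0322 FPKM). ANPEP (CD13), FCGR3A, SIGLEC7, SIGLEC9 and MRC1 were at 0 counts, which allows ANPEP a level of up to 0.0415 FPKM. CD13 and CD33 are the usual pair of myeloid surface markers, and in this library CD33 was present at 644 counts and ANPEP at 0. In a bulk library, fewer cells that express a gene and less RNA per cell cannot be told apart, and this holds for every low level given here.

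Surface antigens of stem cells and early progenitors were mostly low, 3 of 10 at or above 1 FPKM (30%, against 64.8% of protein-coding genes). ENG stood at 13.3 FPKM, IL1RAP, an antigen of leukaemic stem cells, at 5.57 FPKM, and CD38, which rises as progenitors commit, at 4.17 FPKM. CD34 held 6 counts (0.0439 FPKM, 0.0161 to 0.0955), and CD33 over CD34 gave a ratio of 166 (75.7 to 453), or 613 with principal transcript lengths. KIT held 25 counts (0.303 FPKM, 0.196 to 0.447). THY1, TEK and ADGRG1 were at 0.

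The antigen presentation genes divided by class. Of 10 class I genes 9 were at or above 1 FPKM (protein-coding background 64.8%). They were led by HLA-B at 116 FPKM, B2M at 113 FPKM and HLA-C at 103 FPKM, with HLA-E at 78.5 FPKM. The HLA genes are related copies and several are very variable, so the division of reads between them is uncertain. Of 9 class II genes 2 were at or above 1 FPKM: CD74, the invariant chain, at 29.2 FPKM (27.7 to 30.8) and HLA-DMA at 1.62 FPKM. HLA-DRA, HLA-DRB1 and HLA-DPA1 were at 0 counts, which allows HLA-DRA up to 0.158 FPKM, and CIITA, the class II activator, stood at 0.0617 FPKM (19 counts). CD74 thus stood far above the listed class II chains that it binds.

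General leukocyte surface genes were at or above 1 FPKM in 18 of 23 (78.3%, against 64.8% of protein-coding genes). BSG stood at 132 FPKM, the transferrin receptor gene TFRC at 68.1 FPKM, the amino acid transporter chain SLC3A2 at 65.3 FPKM, CD53 at 62.2 FPKM and the homing receptor CXCR4 at 61.9 FPKM. PTPRC (CD45), named after its value was seen, stood at 31.2 FPKM (30.3 to 32.1). CD48 was low at 0.165 FPKM, and CD276 was at 0.

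**Figure D3:**
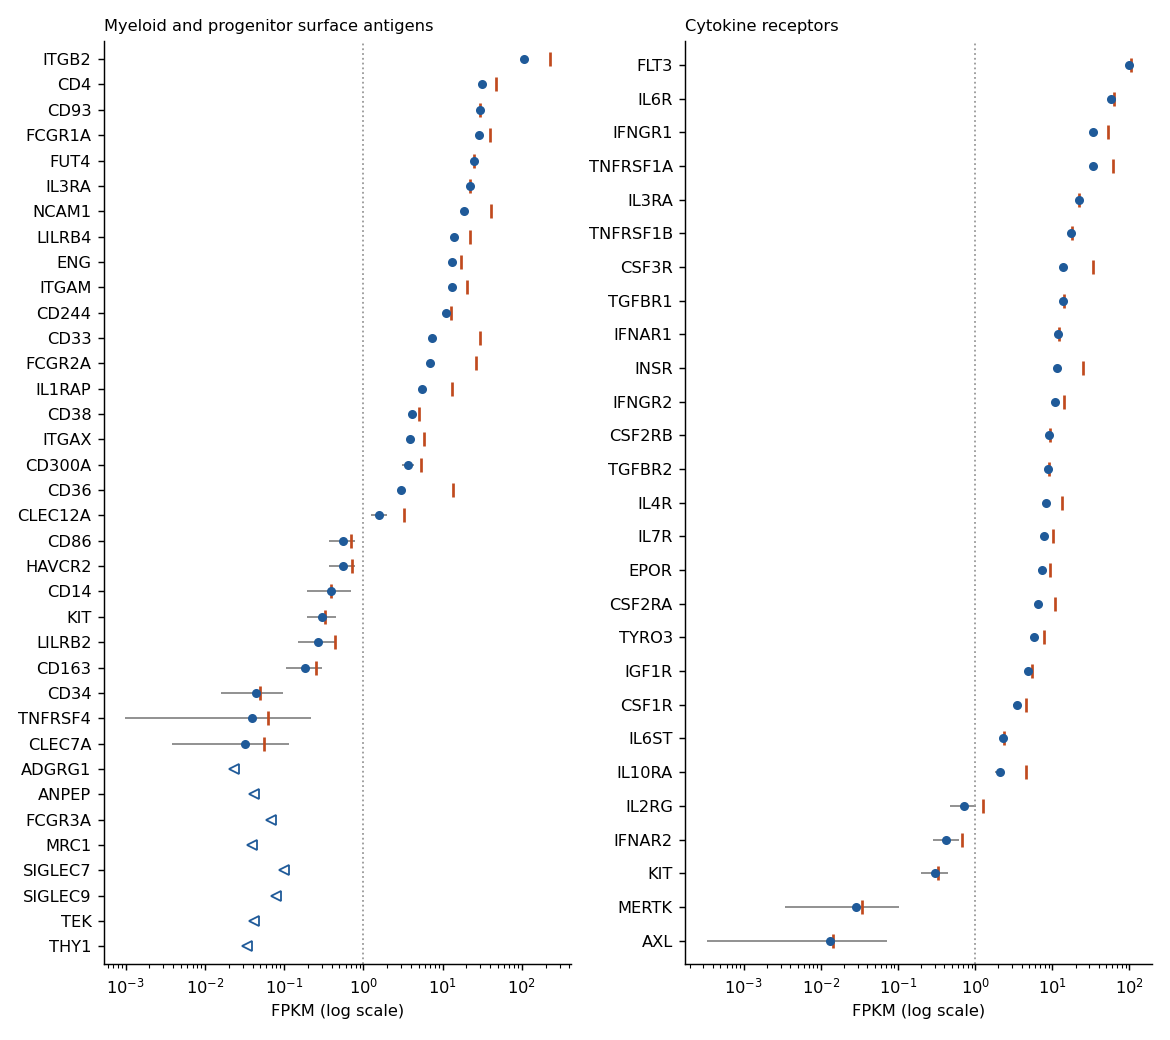
Deposited FPKM (log scale, blue points with 95% intervals from counting error) of myeloid and progenitor surface antigens, left, and cytokine receptors, right. Orange bars give the same genes with principal transcript lengths, and open triangles are genes at 0 counts drawn at the level of 3 counts. FLT3 heads the receptors at 97.4 FPKM and KIT stands at 0.303 FPKM, and CD33 has one of the wider gaps between its point (7.27 FPKM) and its bar (30.1 FPKM).

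Of 28 cytokine and growth factor receptors, 22 were at or above 1 FPKM (78.6%, against 64.8% of protein-coding genes), and FLT3 was the highest. It exceeded CSF1R, the macrophage growth factor receptor of the same kinase family, by a ratio of 27.9 (24.7 to 31.6), and KIT by a ratio of 321 (218 to 497). CSF1R itself stood at 3.50 FPKM (3.09 to 3.94, 267 counts). The granulocyte receptor CSF3R stood at 13.6 FPKM (13.0 to 14.3). Of the interleukin-3 and GM-CSF receptor chains, IL3RA stood at 22.3 FPKM, the shared CSF2RB chain at 8.97 FPKM and CSF2RA at 6.53 FPKM. All 3 chains were therefore above 5 FPKM.

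IL6R, the ligand-binding chain of the interleukin-6 receptor, was second at 58.5 FPKM (57.0 to 60.1, 5600 counts). IL6ST, the signalling chain that it needs, stood at 2.33 FPKM (2.08 to 2.60), so IL6R exceeded it by a ratio of 25.1 (22.4 to 28.2). The interferon-gamma chains IFNGR1 and IFNGR2 stood at 34.1 and 10.8 FPKM and the type I interferon chain IFNAR1 at 11.97 FPKM. IFNAR2 was at 0.424 FPKM, but 83.2% of its exonic bases are shared with another gene and its level is uncertain. TNFRSF1A and TNFRSF1B, the tumour necrosis factor receptors, stood at 33.8 and 17.6 FPKM. The transforming growth factor receptors TGFBR1 and TGFBR2 stood at 13.6 and 8.85 FPKM. INSR stood at 11.3 FPKM and IGF1R at 4.84 FPKM, and IL4R, IL7R and EPOR lay between 7.29 and 8.33 FPKM. IL10RA stood at 2.07 FPKM. IL2RG stood at 0.709 FPKM, but 50.8% of its exonic bases are shared with another gene, so its level is uncertain. Of the 3 receptors of GAS6, TYRO3 stood at 5.77 FPKM (5.41 to 6.16), while MERTK held 2 counts and AXL held 1.

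Of 13 listed cytokines and ligands, 7 were at or above 1 FPKM (53.8%, against 64.8% of protein-coding genes). TGFB1 stood at 69.6 FPKM. GAS6 stood at 19.4 FPKM (18.5 to 20.3), VEGFA at 10.5 FPKM, TNF at 5.75 FPKM, CXCL8 at 4.98 FPKM and IL1B, named after its value was seen, at 1.20 FPKM. With principal transcript lengths VEGFA stood at 127 FPKM, above TGFB1 at 81.4 FPKM. KITLG, the ligand of KIT, stood at 5.33 FPKM (4.87 to 5.82), above the level of KIT. FLT3LG, the ligand of FLT3, held 1 count (0.0237 FPKM), with 37.5% of its exonic bases shared. CSF1 and IGF1 were at 0, but 82.4% of the exonic bases of IGF1 are shared with another gene, so its 0 is uncertain.

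Inside the cell, 43 of 43 listed signalling genes were at or above 1 FPKM and 30 at or above 10 FPKM. The protein-coding background was 64.8% and 29.2%. The adaptor GRB2 was highest at 71.4 FPKM, followed by the phosphatases PTPN6 (58.6 FPKM), INPP5D (54.4 FPKM) and PTPN11 (50.8 FPKM). PIK3CD, the leukocyte phosphoinositide 3-kinase, stood at 46.0 FPKM and the kinase SYK at 45.0 FPKM. STAT5B, named after its value was seen, exceeded STAT5A by a ratio of 6.15 (5.25 to 7.24), at 12.8 and 2.07 FPKM. The lowest were CBLB at 1.17 FPKM and BRAF at 1.56 FPKM. Genes that are commonly read as output of STAT5 and ERK signalling were at or above 1 FPKM in 21 of 22 (protein-coding background 64.8%). IER2 stood at 23.1 FPKM, the kinase gene PIM3 at 22.1 FPKM, FOS at 20.1 FPKM, SPRY2 at 17.2 FPKM and SOCS2 at 15.3 FPKM. These levels say nothing of what drives them, which was not tested.

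MYC stood far above the other members of its network. Of 13 listed members 12 were at or above 1 FPKM, but only MYC was above 100 FPKM (protein-coding background 64.8% and 1.96%). The next were MLX at 16.2 FPKM, MXI1, an antagonist that binds the same partner, at 14.0 FPKM, and MLXIP at 10.6 FPKM. MAX, the partner without which MYC does not bind DNA, stood at 6.32 FPKM (5.73 to 6.96), and MNT, a repressor partner of MAX, at 4.64 FPKM, both named after their values were seen. MYC exceeded MAX by a ratio of 21.7 (19.7 to 24.1) and MXI1 by a ratio of 9.82 (9.17 to 10.5). With principal transcript lengths MYC over MAX was 16.7. MYCL, another member of the MYC family, stood at 0.773 FPKM, and FBXW7, which marks MYC protein for destruction, at 2.57 FPKM.

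Of the listed ribosome production and growth genes, 30 of 30 were at or above 1 FPKM and 13 at or above 100 FPKM. The protein-coding background was 64.8% and 1.96%, and whether MYC sets these levels was not tested. The elongation factor genes EEF1A1 and EEF2 stood at 4211 and 1681 FPKM, and EEF1A1 alone took 2.50% of all counts. The glycolytic enzyme genes ENO1 and LDHA stood at 441 and 154 FPKM. NPM1 and NCL, nucleolar proteins, stood at 383 and 208 FPKM. EIF4A1 was the lowest at 1.56 FPKM (123 counts), and 48.6% of its exonic bases are shared with a gene on the same strand, so its level is uncertain.

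Cell cycle genes were at or above 1 FPKM in 35 of 36 (protein-coding background 64.8%), with a median of 29.1 FPKM. The replication genes PCNA, MCM3 and MCM4 stood at 237, 139 and 120 FPKM, and TOP2A and MCM7 at 93.5 and 92.5 FPKM. CDKN1A (p21), an inhibitor of the cell cycle, stood among them at 136 FPKM (133 to 140). The D cyclins, named after their values were seen, differed: CCND3 stood at 67.8 FPKM (66.1 to 69.6), CCND2 at 12.4 FPKM (11.8 to 13.1) and CCND1 at 1.98 FPKM. CCND3 exceeded CCND2 by a ratio of 5.46 (5.14 to 5.80), or 13.8 with principal transcript lengths. CDK6 over CDK4 gave a ratio of 0.842 (0.795 to 0.893), with 43.2% of the exonic bases of CDK4 shared. CDKN1C was at 0.

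Among the anti-apoptotic BCL2 relatives, 5 of 6 were at or above 1 FPKM (protein-coding background 64.8%), and MCL1 was by far the highest. MCL1, a short-lived protein that binds BIM, BAK and NOXA, stood at 77.7 FPKM (75.6 to 79.9, 5036 counts), rank 393. BCL2 stood at 9.67 FPKM, BCL2L2 (BCL-w) at 5.01 FPKM, BCL2L1 (BCL-xL) at 3.32 FPKM (2.83 to 3.87) and BCL2A1 at 1.55 FPKM (1.00 to 2.29, 25 counts). BCL2L10 was at 0. MCL1 exceeded BCL2 by a ratio of 8.03 (7.60 to 8.495), or 5.66 with principal transcript lengths. BCL2 exceeded BCL2L1 by a ratio of 2.92 (2.48 to 3.45), and 43.0% of the exonic bases of BCL2L1 are shared with another gene.

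The effectors that open the mitochondrial membrane were both present. BAX stood at 32.8 FPKM (31.0 to 34.6) and BAK1 at 22.1 FPKM (20.6 to 23.8), a ratio of 1.48 (1.35 to 1.62) that came to 4.66 with principal transcript lengths. BOK held 3 counts. Of the 8 BH3-only genes, which set these proteins in motion, 6 were at or above 1 FPKM (75%, against 64.8% of protein-coding genes). BIK was highest at 55.8 FPKM (52.0 to 59.8), followed by PMAIP1 (NOXA), which binds MCL1, at 25.7 FPKM (24.0 to 27.4) and BID at 15.7 FPKM. BCL2L11 (BIM) stood at 6.70 FPKM, BMF at 5.84 FPKM and BBC3 (PUMA) at 4.90 FPKM. With principal transcript lengths BCL2L11 stood at 29.3 FPKM, level with PMAIP1 at 29.4 FPKM and above BID at 27.95 FPKM. BAD was at 0.908 FPKM (0.576 to 1.36), an interval that includes the threshold, and HRK at 0.236 FPKM.

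**Figure D4:**
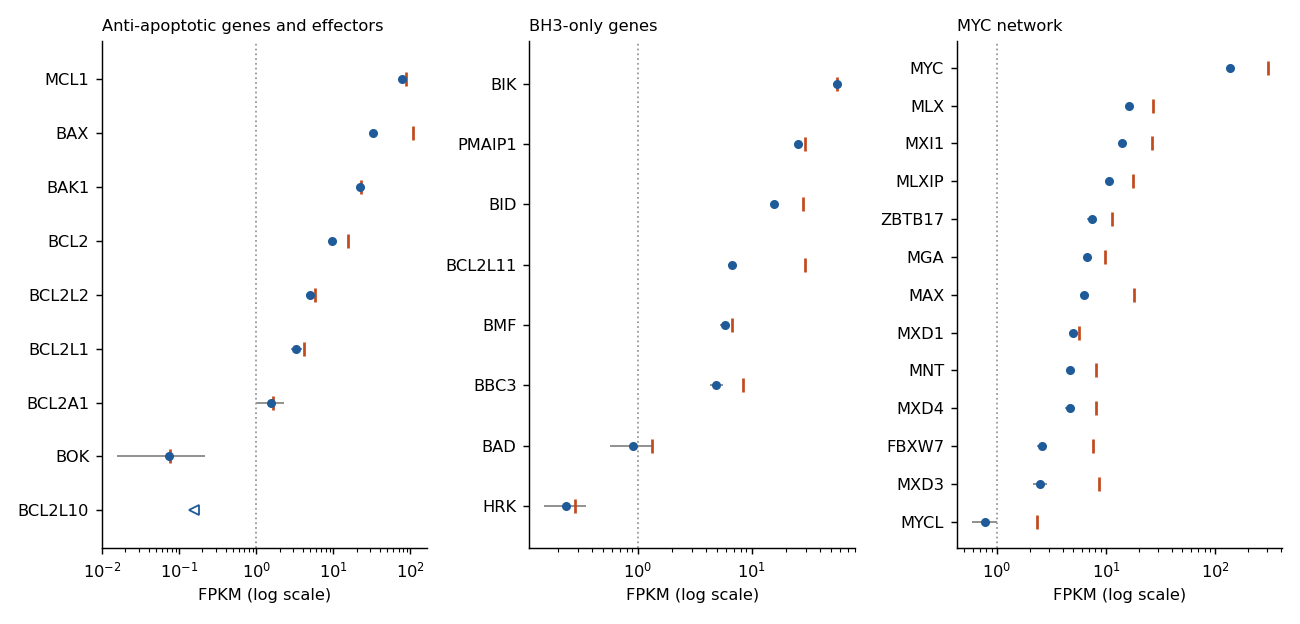
Deposited FPKM (log scale, blue points with 95% intervals from counting error) of anti-apoptotic BCL2 genes with the effectors BAX, BAK1 and BOK, left, BH3-only genes, middle, and the MYC network, right. Orange bars use principal transcript lengths and the open triangle is a gene at 0 counts drawn at the level of 3 counts. MCL1 (77.7 FPKM) lies above BCL2 (9.67 FPKM) and MYC (137 FPKM) above every other member of its network.

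Downstream of the mitochondria, CYCS (cytochrome c) stood at 68.8 FPKM and APAF1, the scaffold of the apoptosome, at 18.1 FPKM. CASP9, the caspase that APAF1 activates, stood at 1.57 FPKM (1.31 to 1.88), or 4.11 FPKM with its principal transcript length. DIABLO has 2 rows in the table, at 0.289 and 0 FPKM, which overlap each other, so its level is uncertain. Of 8 inhibitors of apoptosis 6 were at or above 1 FPKM (75%, against 64.8% of protein-coding genes). BIRC7 (ML-IAP), best known from melanoma, was highest at 34.98 FPKM (32.6 to 37.5, 810 counts), above BIRC5 (survivin) at 25.9 FPKM and XIAP at 4.79 FPKM. BIRC3 was at 0.

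Of the death receptor genes, TNFRSF10B, a receptor of TRAIL, stood at 46.3 FPKM, TNFRSF10A at 6.08 FPKM and FAS at 5.57 FPKM, and FASLG was at 0. CDKN1A was described above at 136 FPKM. MDM2, a ubiquitin ligase of the damage response, named after its value was seen, stood at 10.5 FPKM. CDKN1A over MDM2 was 13.0 (12.3 to 13.6) on the deposited scale and 3.32 with principal transcript lengths, since MDM2 has 13284 joined exon bases and a principal transcript of 2523.

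Genes tied to leukaemia drugs, as targets or in drug uptake or activation, were at or above 1 FPKM in 22 of 22. The protein-coding background was 64.8%, and the median of the list was 23.8 FPKM. FLT3 and TOP2A were highest, followed by IDH2 at 86.7 FPKM, MCL1 at 77.7 FPKM, HDAC1 at 49.97 FPKM and IDH1 at 44.5 FPKM. PRMT5 (9.82 FPKM), BCL2 (9.67 FPKM), CD33 (7.27 FPKM) and DHODH (3.66 FPKM) were the lowest. Levels of mRNA do not give the amount of protein, which was not measured here.

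Listed markers of other cell types were mostly at or near 0. Markers not listed were left out: 6 of 10 erythroid, 3 of 10 B cell, 7 of 10 T cell and 3 of 8 NK cell markers. Also left out were 2 of 8 megakaryocyte markers, 2 of 8 of mast cells, basophils and eosinophils, and 7 of 12 epithelial, stromal and endothelial markers. Of erythroid markers 0 of 4 reached 1 FPKM, with HBB at 0. Of B cell markers 1 of 7 did, CD79A at 1.03 FPKM (0.654 to 1.55), with a summed level of 1.64 FPKM for the list. Of T cell markers 1 of 3 did, TRAC at 5.25 FPKM (76 counts), with CD7 at 0 and CD5 at 0.0838 FPKM. Of NK cell markers 1 of 5 did, NKG7 at 68.9 FPKM (64.6 to 73.4), while GNLY, KLRD1 and KLRB1 were at 0 and PRF1 was at 0.745 FPKM. NKG7, a granule membrane protein, was thus high without the defining genes of NK cells. Megakaryocyte markers (1 of 6, GP1BA at 1.81 FPKM) and mast cell, basophil and eosinophil markers (1 of 6, TPSB2 at 1.13 FPKM) stood near the threshold. Of epithelial, stromal and endothelial markers 1 of 5 did, PECAM1, which leukocytes also express, at 14.4 FPKM, with COL1A1 and PDGFRB at 0.

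The most abundant mRNAs were mitochondrial. MT-CO1, MT-CO3 and MT-CO2, subunits of cytochrome c oxidase, led at 8441, 8098 and 6661 FPKM, and mitochondrially encoded genes took 4.53% of all counts. MT-ATP8 held 9 counts (2.93 FPKM), with 22.2% of its bases shared with MT-ATP6, which stood at 3294 FPKM. MTATP6P1, a nuclear pseudogene that is a near-identical copy of MT-ATP6, was listed at 1513 FPKM, so reads of the mitochondrial gene may be split between them. Cytosolic ribosomal protein genes took 9.13% of counts, and 65 of 87 were at or above 100 FPKM. RPS12 was highest at 2670 FPKM, and RPS10 (2.03 FPKM) and RPL17 (0.656 FPKM), with 39.4% and 35.3% of exonic bases shared, were among the lowest.

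Outside those families the highest protein-coding genes after EEF1A1 were FTL, the ferritin light chain gene, at 3030 FPKM, EEF2, SRGN and ACTB at 1350 FPKM. The chaperone gene HSP90AB1 stood at 1223 FPKM, ACTG1 at 1155 FPKM and TMSB4X, which binds actin monomers, at 1155 FPKM. AZU1 (739 FPKM) also belonged to the highest 20, and LCP1, the leukocyte plastin gene, stood at 475 FPKM. Long noncoding genes named here were chosen after their values were seen. GAS5, a host gene of small nucleolar RNAs, was the highest of them at 176 FPKM (173 to 180), and LRRC75A-AS1 stood at 116 FPKM and SNHG8 at 104 FPKM.

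How far a gene overlaps another bears on all of these levels. Among 7610 protein-coding genes that share no exonic base with another gene, 64.4% were at or above 1 FPKM. The share was 71.1% where up to 5% of bases are shared, 59.6% at over 20% to 50%, 20.3% of 429 genes at over 50% to 90%, and 0 of 59 genes above 90%. At over 50% to 90% shared on the same strand, with at most 5% on the opposite strand, 10.9% of 211 genes reached 1 FPKM. With the strands exchanged, 37.6% of 101 genes did. The levels of heavily overlapping genes such as CD68, IFNAR2 and EIF4A1 are therefore uncertain, since how the count step treated shared bases and strand is not stated.

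**Figure D5:**
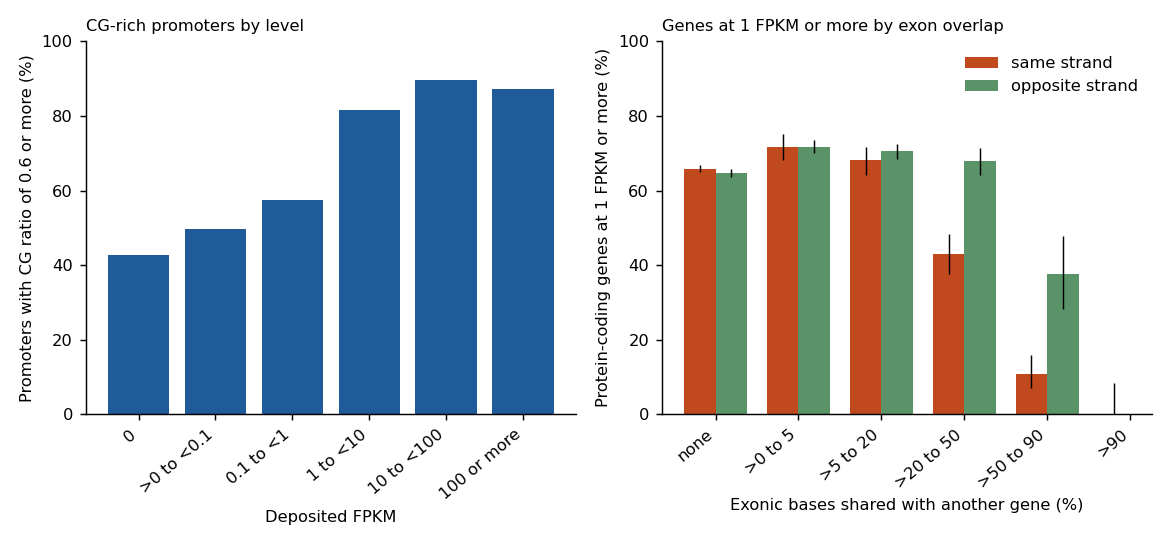
Left, the percent of matched protein-coding promoters that are CG-rich (ratio of 0.6 or more) by deposited FPKM of the gene: 42.6% at 0 FPKM and 89.6% at 10 to below 100 FPKM. Right, the percent of protein-coding genes at or above 1 FPKM by the percent of exonic bases shared with another gene on the same or the opposite strand. Genes drawn for 1 strand share at most 5% on the other. Intervals are exact binomial 95% intervals, and there is no bar for fewer than 20 genes. Same-strand sharing of over 50% to 90% gives 10.9% of genes, and of over 90% gives 0.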

How the data were processed

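Per the submitters' processing notes, reads were aligned to GRCh38 with HISAT2 and counted per gene with HTSeq 0.13.5. The sources used here give neither the annotation release nor the strand setting. Per the labels, 1.5 µg of total RNA went into each library. The authors' deposited counts are whole reads per gene, and the deposited FPKM values are scaled to library size and gene length. Dividing the counts by FPKM gave lengths equal to the joined exon length of GENCODE 29 for 99.6% of genes, so that annotation was used for coordinates and overlaps.

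Only the control library's columns were analysed. The 6 columns of the other libraries served only to see which genes are listed. With 1 library no test was made. Intervals are exact Poisson 95% intervals of the count, scaled to FPKM, exact conditional binomial intervals for ratios, and exact (Clopper-Pearson) binomial intervals for shares; 3 counts are the limit for a count of 0. The interval method was tested on simulated data, which cannot show whether real reads are independent molecules, so the intervals still cover counting error only. Depth was 14825763 counts.

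The gene lists (39, of which 597 of 675 symbols are listed) and the members were chosen with earlier results of these data known. Named genes are the 20 highest by FPKM, the 20 highest coding genes that are neither ribosomal nor mitochondrial, the markers with MYC and BCL2, all members of 8 lists central to this line, and up to 6 highest and 4 lowest of every other list. Genes outside this rule, including CDK4, CCND2, CCND3, STAT5B and the noncoding genes, were named after their values were seen. A few genes are not reported here. Alternatives changed the threshold, the filter, the ranking and the length. Python 3.11.15, pandas 2.3.3 and SciPy 1.17.1 were used.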

Additional observations from a re-analysis of the deposited data

How the results depend on the processing

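The number of listed genes at or above 1 FPKM stayed within 1.5 times of the main count under every alternative run, between 9303 and 13930 genes against 10847, and that of list members between 449 and 497 against 485. The share of counts in the 100 most abundant genes was 22.9% ranked by count and 14.8% without mitochondrial and ribosomal protein genes. The percentiles moved by more than counting error in most settings. Ranked by count they were 98.7 for FLT3, 80.6 for HOXA9, 77.4 for MEIS1, 79.9 for CD33, 98.7 for MYC and 92.2 for BCL2. Among protein-coding genes only they were 97.99, 79.9, 48.1, 63.6, 98.7 and 70.1 in that order of genes, and among genes with at least 10 counts 97.7, 76.8, 38.5, 57.8, 98.5 and 65.4. Among genes of at least 300 bases FLT3 was at 98.7 and MYC at 99.2. With principal transcript lengths, chosen after seeing the data, FLT3 was at 97.9, MEIS1 at 73.9, CD33 at 90.3 and MYC at 99.4. Fewer genes ranked, or another length, make these differences by construction. Without members that share over 20% of exonic bases, the HOXA cluster kept 4 genes at or above 1 FPKM in place of 9, and the anti-apoptotic BCL2 family 3 in place of 5.

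No paired analysis was possible because each group holds 1 library and no test between groups was made. Leaving out a replicate and scaling between libraries do not apply to 1 library. Depth limits the levels below 0.0667 FPKM at the median length, where 3 or fewer counts stand behind a value.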
